A study of Mus musculus with 7 samples.

Results

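Axons and myelinating glia meet at a series of specialised contacts, and 10 genes that encode the adhesion molecules and scaffolds of these contacts are described here: Cntn1, Cntn2, Cntnap1, Cntnap2, Nfasc, Ank2, Ank3, Epb41l3, Nrcam and Gldn. They were taken by name from a table of 22880 genes, and all 10 were found, Epb41l3 under its older symbol by its gene ID. The table holds gene expression in optic nerves of mice at postnatal day 14, measured by RNA sequencing as FPKM, the count of fragments scaled by gene length and library size. The 4 control mice were Fasn lox/lox without Cre and the 3 mutant mice were Olig2-Cre Fasn lox/lox, so that both groups carried floxed alleles of Fasn, the fatty acid synthase gene, and differed by Cre. Both groups were on a C57Bl/6 background, to which the floxed line, of mixed strain origin, had been backcrossed for at least 3 generations. Both optic nerves of 1 mouse made 1 sample. Cre was driven from the Olig2 promoter, which acts in the oligodendrocyte lineage and not in this lineage alone. Which other cells of the nerve kept their Fasn was not tested here.

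At the node of Ranvier, voltage-gated sodium channels are held in the axon membrane by ankyrin G (Ank3), spectrin and the cell adhesion molecules neurofascin and NrCAM. The paranode beside it is a ring of septate-like junctions in which contactin 1 and Caspr (Cntnap1) on the axon face the glial form of neurofascin on the myelin loops. Further out, the juxtaparanode clusters potassium channels through contactin 2 (also called TAG-1) and Caspr2 (Cntnap2). Beneath these membranes, ankyrin B (Ank2) and protein 4.1B (Epb41l3) tie the adhesion molecules to spectrin. The optic nerve contains axons of retinal ganglion cells but not their cell bodies, so RNA in the nerve comes mostly from glia and from cells of vessels and meninges. The values are per gene, so the glial and the axonal form of neurofascin, and the isoforms of the ankyrins, are not separated.

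Promoter windows are shown for a pair of members, of Cntn1 because it was the member that passed the test and of Ank2 because it passed when replicate numbers were added to the fit. Each is the 250 bases before a RefSeq start (GRCm38.p6), 5′ to 3′ on the strand of the gene. The Cntn1 window lies at chr15:92050915-92051164 on the plus strand and ends at the deposited start of the gene, and it is 1 of 3 RefSeq starts. The Ank2 window lies at chr3:127499116-127499365 on the minus strand, 235 bases inside the deposited start, and it is 1 of 4 RefSeq starts. Capitals mark matches on either strand to CANNTG (the E-box bound by basic helix-loop-helix factors such as Olig2) or to the Sox cores ACAAAG and ACAATG.
Cntn1: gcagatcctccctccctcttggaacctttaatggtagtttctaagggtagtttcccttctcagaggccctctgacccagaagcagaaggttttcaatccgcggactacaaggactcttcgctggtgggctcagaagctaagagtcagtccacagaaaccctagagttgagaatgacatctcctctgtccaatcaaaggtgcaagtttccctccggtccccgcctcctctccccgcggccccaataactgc
Ank2: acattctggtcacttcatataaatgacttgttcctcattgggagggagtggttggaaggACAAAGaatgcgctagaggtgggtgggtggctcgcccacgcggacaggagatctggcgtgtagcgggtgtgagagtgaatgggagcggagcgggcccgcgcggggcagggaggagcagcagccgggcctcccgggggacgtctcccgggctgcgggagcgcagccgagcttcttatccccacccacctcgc
Cntn1 held no match and Ank2 held 1 match, to ACAAAG. Over 32851 windows of this length, 66.2% held CANNTG, 16.5% held ACAAAG and 10.7% held ACAATG. GC content was 53.6% in the Cntn1 window and 64.4% in the Ank2 window.

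The labels were checked by the deleted gene. FPKM of Fasn was 210.3, 169.1, 211.1 and 228.3 in controls and 69.3, 50.52 and 48.98 in mutants, a mean of 205 ± 25.1 (SD, n = 4) against 56.3 ± 11.3 (SD, n = 3). The groups were far apart, and the log2 difference of Fasn was −1.86 (SE 0.138, adjusted p = 0.00312 in limma). The libraries held 27452222 to 43462575 reads, as estimated from the deposited counts. Genes were tested with limma on log2(FPKM + 0.5), mutant against control, where at least 3 samples reached 0.5 FPKM, and an adjusted p is a Benjamini-Hochberg value over all 13866 genes tested. At a threshold of 0.05, 363 genes passed, 175 higher and 188 lower in the mutant, that is 2.62% in either direction, 1.26% higher and 1.36% lower. With samples centred on their median the split was 117 higher and 283 lower, and on the deposited normalised counts it was 102 higher and 267 lower. With replicate number as a block, 890 genes were higher and 269 lower, in a fit to which control 4, whose number has no mutant partner, adds nothing.

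Of the 10 members, 1 passed the threshold. This was Cntn1, which was lower in the mutant. The median log2 difference of the 10 was −0.20, against 0.05 over all genes tested, with 6 members negative and 4 positive. It was 0.01 without mutant 1, and −0.11 without control 4 or with the replicate block. The groups did not overlap for Cntn1, Nfasc and Epb41l3, all lower in mutants, nor for Ank2, which was higher. That is 4 of 10, where 21.1% of all genes tested had groups that did not overlap (8.26% lower in mutants and 12.9% higher). At an unadjusted p under 0.05 stood 6 of the 10 members, against 24.4% of all genes. In bulk tissue, fewer cells of a type and less RNA per cell cannot be told apart, and this holds for every value below.

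**Figure D1:**
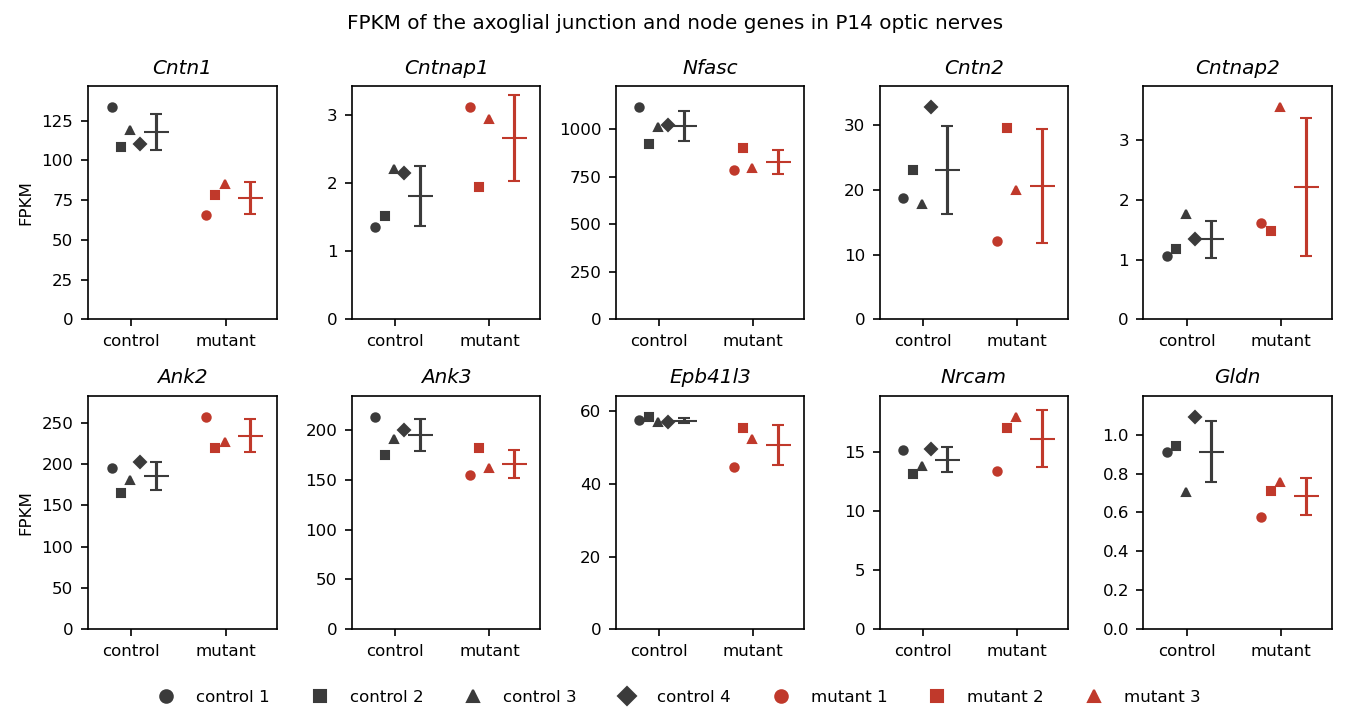
FPKM (vertical axes, each from 0) of the 10 genes in 4 control and 3 mutant optic nerves; symbols are single mice, and the bar with whiskers beside them is the mean with its SD. Cntn1, Nfasc and Epb41l3 are lower in every mutant than in every control and Ank2 is higher, while the groups of the other 6 genes overlap.

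RNA of contactin 1, a membrane-anchored adhesion molecule of the paranode that oligodendrocyte precursors also express, was lower in the mutant nerves. The gene (ENSMUSG00000055022) lies at chr15:92051165-92341967 on the plus strand. Its FPKM was 133.5, 108.3, 119.4 and 110.4 in controls and 65.41, 78.4 and 85.48 in mutants. The highest mutant sample was below the lowest control sample, and no sample stood far from its group. The means were 118 ± 11.5 (SD, n = 4) and 76.4 ± 10.2 (SD, n = 3), so that the mutant mean was 64.8% of the control mean. On the log2 scale the difference was −0.63 (SE 0.105, 95% interval −0.86 to −0.39, adjusted p = 0.0274 in limma). This rests on 11584 to 28642 reads per sample. The direction held whichever sample was left out, but the adjusted p in limma was above the threshold, at 0.0632, 0.0591, 0.0978 and 0.0518 without control 1, 2, 3 and 4, and to 0.073 without mutant 3. With no filter on low values, which raised the number of genes tested to 19291, it was 0.0706.

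The partner of contactin 1 on the axon is Caspr, and its values did not lie in the same direction. Cntnap1 (ENSMUSG00000017167, chr11:101176041-101190724, plus strand) had FPKM of 1.354, 1.527, 2.216 and 2.16 in controls and 3.122, 1.946 and 2.942 in mutants. Mutants 1 and 3 were above every control, and mutant 2 lay among the controls. The means were 1.81 ± 0.438 and 2.67 ± 0.633, a log2 difference of 0.45 (SE 0.191, 95% interval 0.02 to 0.88, adjusted p = 0.187 in limma), which does not pass. Caspr is made by neurons, and its RNA was scarce in the nerve, with 319 to 607 reads per sample.

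Nfasc, whose glial form is the receptor on the myelin side of the paranode and whose neuronal form sits at the node, was the most abundant member. Its gene (ENSMUSG00000026442) lies at chr1:132564690-132741797 on the minus strand. FPKM was 1114, 923, 1010.0 and 1021 in controls and 784.2, 898.8 and 796 in mutants. All mutants were below all controls, but mutant 2 came close to control 2. The mutant mean of 826 ± 63.0 was 81.3% of the control mean of 1017 ± 78.1, and the log2 difference of −0.30 (SE 0.0893, 95% interval −0.50 to −0.10, adjusted p = 0.0984 in limma) does not pass the threshold.

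Neither gene of the juxtaparanodal pair passed the threshold. Cntn2 (ENSMUSG00000053024, chr1:132509427-132543256, minus strand), which oligodendrocytes and neurons both make, had FPKM of 18.67, 23.03, 17.81 and 32.76 in controls and 12.06, 29.58 and 20.02 in mutants. The groups overlapped widely, with the lowest value in mutant 1 and the highest in control 4. The log2 difference was −0.21 with a 95% interval from −0.87 to 0.45 (adjusted p = 0.695 in limma), and it turned to 0.12 without mutant 1. Cntnap2 (ENSMUSG00000039419, chr6:45060061-47304213, plus strand), the neuronal partner of contactin 2, had FPKM of 1.062, 1.179, 1.77 and 1.347 in controls and 1.616, 1.482 and 3.549 in mutants. Only mutant 3 lay outside the range of the controls. The log2 difference was 0.50 with a 95% interval from −0.07 to 1.07 (adjusted p = 0.258 in limma), and without mutant 3 it was 0.17.

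Among the scaffolds, both ankyrins were abundant and had differences of opposite sign. Ankyrin B, encoded by Ank2 (ENSMUSG00000032826, chr3:126921612-127499350, minus strand), lines the axon shaft and the axonal side of the paranode. Its FPKM was 194.8, 164.6, 180.7 and 202 in controls and 256.8, 220.0 and 226.5 in mutants. Every mutant was above every control, with means of 186 ± 16.5 and 234 ± 19.6. The log2 difference was 0.34 (SE 0.0875, 95% interval 0.14 to 0.54, adjusted p = 0.0736 in limma) and does not pass. With replicate number as a block, which takes no information from control 4, it was 0.38 (SE 0.0725, adjusted p = 0.0309 in limma) and passes. It passed in no other setting. With samples centred on their median it was 0.26 (adjusted p = 0.0926 in limma), and on normalised counts 0.26 (adjusted p = 0.102 in limma). Without mutant 1 it was 0.27 (adjusted p = 0.172 in limma).

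Ankyrin G, encoded by Ank3 (ENSMUSG00000069601, chr10:69533772-70027438, plus strand), anchors sodium channels at the node and is also found in oligodendrocytes, on the glial side of the paranode. Its FPKM was 213.3, 175.4, 191.2 and 200.6 in controls and 154.6, 182 and 162.3 in mutants. Mutant 2 was above control 2, so the groups overlapped. The means were 195 ± 16.0 and 166 ± 14.1, and the log2 difference was −0.23 (SE 0.0844, 95% interval −0.42 to −0.04, adjusted p = 0.145 in limma).

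Protein 4.1B, encoded by Epb41l3 (ENSMUSG00000024044, chr17:69156810-69289985, plus strand), links the Caspr proteins to the axonal cytoskeleton. It was the steadiest member in controls, with FPKM of 57.49, 58.36, 56.9 and 56.88. The mutants had 44.59, 55.25 and 52.38, all below the controls, with mutant 1 lowest and mutant 2 near them. The log2 difference of −0.18 (SE 0.0758, 95% interval −0.35 to −0.01, adjusted p = 0.183 in limma) does not pass, and it was −0.09 without mutant 1.

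The remaining members belong to the node itself. Nrcam (ENSMUSG00000020598, chr12:44328885-44601846, plus strand), a nodal adhesion molecule of the L1 family, had FPKM of 15.18, 13.19, 13.83 and 15.29 in controls and 13.41, 17.06 and 17.97 in mutants. Mutants 2 and 3 were above the controls and mutant 1 was among them, and the log2 difference was 0.15 with a 95% interval from −0.09 to 0.40 (adjusted p = 0.407 in limma). It was 0.28 without mutant 1, 0.07 without mutant 3, 0.07 with samples centred on their median and 0.08 on normalised counts. Gldn (ENSMUSG00000046167, chr9:54286486-54341786, plus strand) encodes gliomedin, which Schwann cells use to assemble nodes in peripheral nerve. It was the lowest member, with FPKM of 0.9115, 0.9404, 0.7064 and 1.09 in controls and 0.5765, 0.7114 and 0.7584 in mutants. The groups overlapped through control 3, and the log2 difference was −0.25 with a 95% interval from −0.57 to 0.07 (adjusted p = 0.302 in limma). At this low level the value depended on the scale and was −0.47 on normalised counts, −0.37 with 0.1 added to FPKM and −0.18 with 1 added. Gliomedin rested on 96 to 184 reads per sample.

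**Figure D2:**
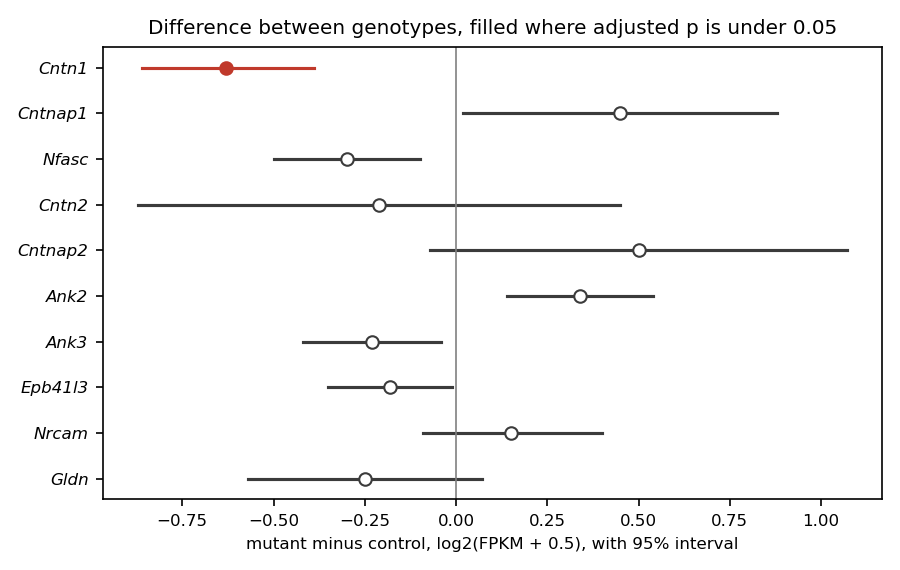
Difference in log2(FPKM + 0.5) between mutant and control (horizontal axis) for each of the 10 genes, with its 95% interval from limma over all genes; a filled red point marks an adjusted p under 0.05. Cntn1 at −0.63 is the only filled point, and the intervals of Cntn2, Cntnap2, Nrcam and Gldn include 0.

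Levels of the members differed widely in FPKM, which is per length and so depends on the gene length in the table, from 2455 bases for Ank2 to 7467 bases for Nrcam. In controls Nfasc led with a mean 5.21 times that of Ank3, the next in order. Ank3 and Ank2 did not differ beyond their spread, with a ratio of 1.05 and Ank3 above Ank2 in 3 of 4 controls. In the mutants that order was turned, and Ank3 was above Ank2 in 0 of 3. Cntn1 followed with a level that Ank2 exceeded 1.57 times, then Epb41l3, Cntn2 and Nrcam, each below the one before in every control. The neuronal genes came far lower, as Nrcam exceeded Cntnap1 7.92 times. Cntnap1, Cntnap2 and Gldn ended the order, and the control ranges of neighbours overlapped. Nfasc made up 63.0% ± 0.668 of the summed FPKM of the 10 genes in controls and 59.1% ± 1.23 in mutants, while the share of Ank2 was 11.5% ± 0.541 and 16.9% ± 2.22.

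Whether partners moved by different amounts was asked within each sample, from the difference of their log2 values, which does not depend on how samples are scaled to each other apart from the added 0.5. There were 7 pairs, and the exact two-sided permutation test of 4 against 3 samples can give no p below 0.0571, so none can reach 0.05. The ratio of Cntn1 to Cntnap1 in FPKM was 98.6, 70.9, 53.9 and 51.1 in controls and 21.0, 40.3 and 29.1 in mutants. The groups did not overlap, and the log2 difference between the pair was −1.08 ± 0.299 (SE) in mutants against controls (exact permutation p = 0.0571, adjusted over the 7 pairs 0.0999). For this and the other pairs the values are RNA of the whole nerve, and the cells that made it were not separated. The complexes of the proteins were not measured. The ratio of Ank2 to Ank3 was 0.913, 0.938, 0.945 and 1.01 in controls and 1.66, 1.21 and 1.4 in mutants. These groups did not overlap either, with a log2 difference between genotypes of 0.57 ± 0.136 (SE) and the same exact permutation p of 0.0571.

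Of the other paranodal pairs, Cntn1 against Nfasc also had groups apart at this smallest p and differed by −0.33 ± 0.117 (SE) on the log2 scale. This compares RNA per gene, in which the glial and axonal forms of neurofascin are not separated. Cntnap1 against Nfasc differed by 0.75 ± 0.288 (SE, exact permutation p = 0.0571), but mutant 2 (−8.52) and control 3 (−8.54) almost met. The groups were apart there through the added 0.5, since the FPKM ratio of mutant 2 (0.00217) was below that of control 3 (0.00219) and the exact permutation p was 0.114 with 0.1 added or on normalised counts. For the juxtaparanode the groups overlapped, and Cntn2 against Cntnap2 differed by −0.71 ± 0.55 (SE, exact permutation p = 0.229, adjusted 0.321), with −0.41 without mutant 3 and −1.20 without mutant 2. Between relatives, Cntn1 against Cntn2 differed by −0.42 ± 0.384 (SE, exact permutation p = 0.343, adjusted 0.4), which was −0.14 without mutant 2, −0.27 without control 1 and −0.64 without mutant 1. Cntnap1 against Cntnap2 differed by −0.04 ± 0.299 (SE, exact permutation p = 1.0). The sign of the last was positive without control 4 (0.02) or without mutant 3 (0.21).

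**Figure D3:**
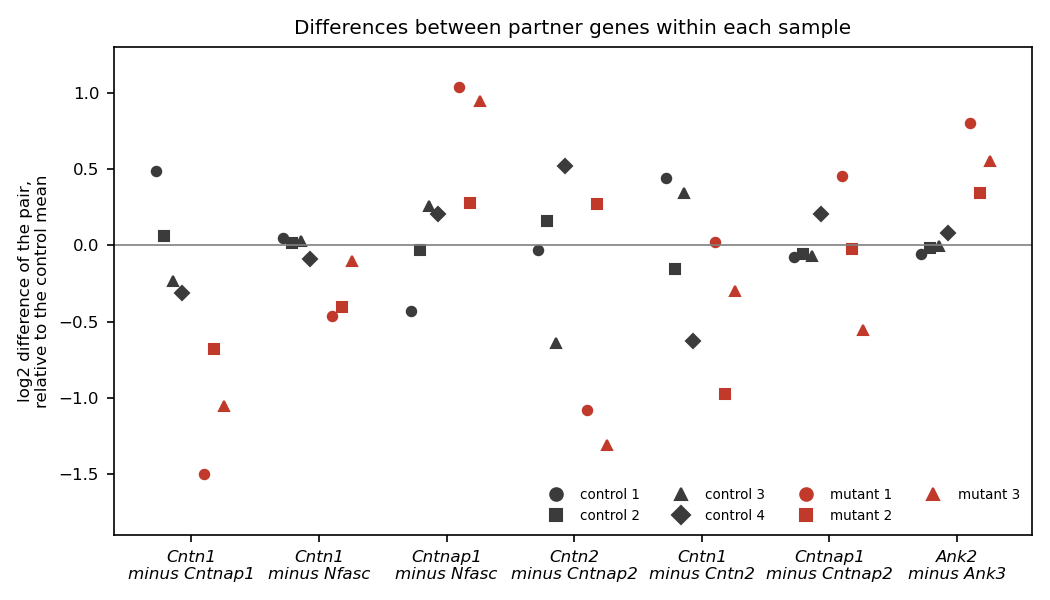
Difference in log2(FPKM + 0.5) between the genes of each of 7 pairs (horizontal axis) in every sample, drawn relative to the control mean (vertical axis, log2 units); symbols are single mice. The 3 mutants lie apart from the 4 controls for Cntn1 minus Cntnap1, Cntn1 minus Nfasc and Ank2 minus Ank3, mutant 2 and control 3 almost meet for Cntnap1 minus Nfasc (−8.52 and −8.54 before centring), and the groups are mixed for the other 3 pairs.

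Other genes of nodes and junctions were read from lists of 38 genes, of which 37 were tested. In these, 4 genes passed the threshold, all lower in the mutant, against 1.36% of all genes tested, and the median log2 difference was −0.01. Groups did not overlap for 8 genes lower and 3 genes higher in mutants, where the shares over all genes tested were 8.26% and 12.9%. The 4 were Gal3st1, Mag, Cadm4 and Vcan.

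Node channels and spectrin gave no call among 10 genes tested in limma. At an unadjusted p under 0.05 stood 5 of the 10, against 24.4% of all genes tested. The median log2 difference was 0.30 with 8 genes positive, or 0.16 without mutant 3. The smallest p value belonged to Kcnk2, a potassium leak channel of the node. Kcnk2 had FPKM of 18.3, 15.04, 19.57 and 17.87 in controls and 26.24, 19.17 and 24.04 in mutants, with mutant 2 within the control range. Its log2 difference was 0.37 (SE 0.121, adjusted p = 0.116 in limma), and with replicate number as a block it was 0.38 (SE 0.0819, adjusted p = 0.0382 in limma), which passes, as it did without mutant 2 (0.50, adjusted p = 0.0428 in limma).

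At the paranode, 1 of 6 genes passed. Gal3st1, the sulfotransferase that makes the myelin lipid sulfatide, had FPKM of 74.51, 87.08, 89.89 and 86.46 in controls and 55.65, 57.54 and 53.96 in mutants. The mutants were close together and well below the controls, and the log2 difference was −0.59 (SE 0.0737, adjusted p = 0.0148 in limma). The adjusted p in limma was 0.0503 without control 2, 0.0717 without control 3 and 0.073 without mutant 3. The enzyme before it in the pathway, Ugt8a, makes galactosylceramide and differed by 0.29 in the other direction (SE 0.11, adjusted p = 0.152 in limma), without passing; it is named here after its values were seen.

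At the juxtaparanode and internode, 2 of 15 genes passed, and the median log2 difference was −0.10, or −0.02 without mutant 1 and −0.18 with samples centred on their median. Mag, the adhesion molecule of the innermost myelin layer, had FPKM of 2499, 2363, 2618 and 2674 in controls and 1890.0, 1941 and 1747 in mutants. Its log2 difference was −0.45 (SE 0.0906, adjusted p = 0.0437 in limma). Cadm4, the glial adhesion molecule that binds axonal Cadm proteins along the internode, had FPKM of 233.6, 239.4, 252.3 and 259.5 in controls and 189.2, 213 and 187.8 in mutants. Its log2 difference was −0.32 (SE 0.0695, adjusted p = 0.0486 in limma). Both calls were lost with the replicate block (adjusted p in limma 0.0726 for Mag and 0.0674 for Cadm4), on normalised counts (0.059 and 0.0511) and with no filter on low values (0.141 and 0.0884). They were also lost in limma without each single sample except mutant 2, with adjusted p from 0.075 to 0.144 for Mag and from 0.0748 to 0.149 for Cadm4. Kcnab2, named here after its values were seen, differed by −0.38 (adjusted p = 0.0717 in limma) on FPKM without centring and does not pass. It passed on normalised counts (−0.48, adjusted p = 0.0473 in limma) and with samples centred on their median (−0.46, adjusted p = 0.0478 in limma). With the block, Lgi1, named here after its values were seen, encodes a secreted partner of Adam22 and passed at a log2 difference of 0.64 (SE 0.136, adjusted p = 0.0375 in limma), while without the block it was 0.56 (SE 0.135, adjusted p = 0.0628 in limma) and does not pass.

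In the perinodal matrix, 1 of 6 genes passed. Versican, encoded by Vcan, is a proteoglycan of the matrix around nodes and is also made by oligodendrocyte precursors. Its FPKM was 68.04, 62.39, 66.95 and 64.26 in controls and 38.26, 45.52 and 50.54 in mutants, a log2 difference of −0.55 (SE 0.0908, adjusted p = 0.0265 in limma). The adjusted p in limma was 0.0651, 0.0641, 0.0976 and 0.0568 without control 1, 2, 3 and 4, and 0.0612 without mutant 3. The median of the list was −0.24, with −0.09 without mutant 1, −0.17 without mutant 2 and −0.39 without mutant 3. Among 11 tested relatives of the members (other contactins, Caspr proteins, L1 proteins, ankyrin 1 and 4.1 proteins) none passed in limma. Of these, 1 had an unadjusted p under 0.05, against 24.4% of all genes tested. Their median log2 difference was 0.03, or −0.06 with samples centred on their median. The smallest p values among them were those of Chl1, of the L1 family (log2 difference 0.53, adjusted p = 0.131 in limma), and Cntn6 (0.30, or 0.09 without mutant 3, adjusted p = 0.349 in limma).

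**Figure D4:**
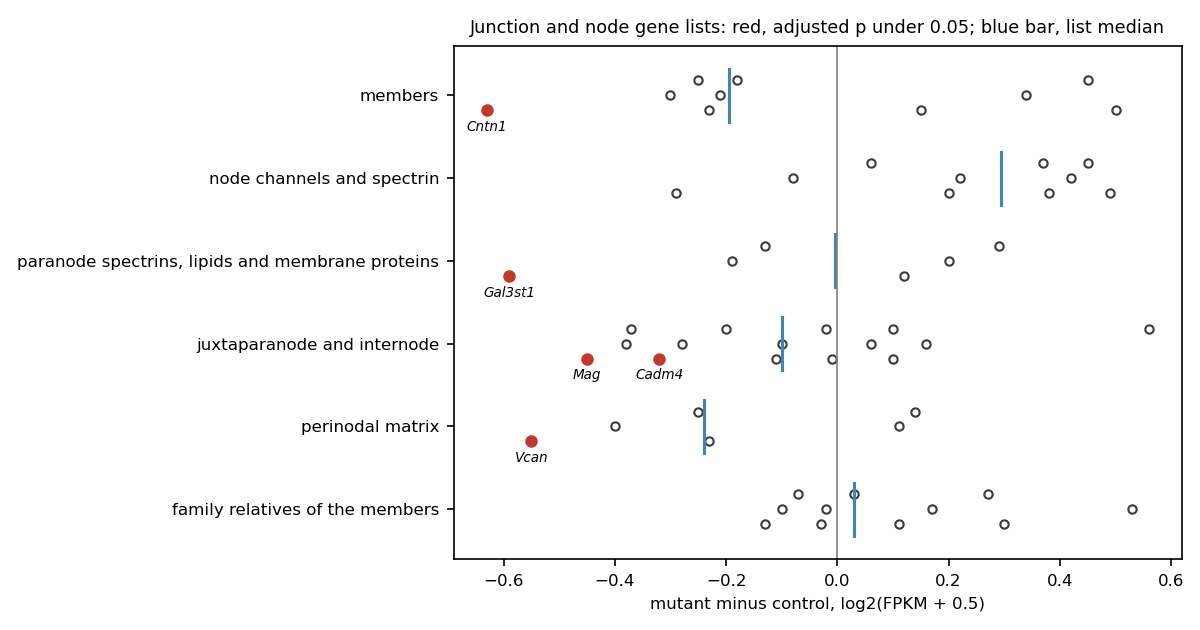
Difference in log2(FPKM + 0.5) between mutant and control (horizontal axis) of the 10 members and of each tested gene of 5 lists (rows; vertical offsets only separate points); red points have an adjusted p under 0.05 and blue bars are list medians. The red points, Cntn1, Gal3st1, Mag, Cadm4 and Vcan, all lie below 0.

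Versican was also the gene whose pattern over the 7 samples was most like that of Cntn1. Likeness was the root mean square difference of log2(FPKM + 0.5), each gene centred on its own mean, where the median over all genes tested was 0.385 and 12 genes lay within 0.1. It was 0.0686 for Vcan, 0.0778 for Gpr61, an orphan receptor, 0.0783 for Chrna4, a nicotinic receptor subunit, 0.0789 for Clvs1 and 0.0817 for 1810041L15Rik. In each of the 5 the FPKM of mutant 1 was lowest and that of mutant 3 the highest of the mutants, which is also the order of the mutants for Cntn1. The 5 were chosen by their likeness to Cntn1 over these same samples, so the shared order largely follows from that choice. These values describe the 7 samples and share their libraries.

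Marker lists of the cells in the nerve were read beside these results, and their part in the results was not tested. No marker was at 0 in every sample. Groups did not overlap, lower in mutants, for 4 of 8 markers of oligodendrocyte precursors, 6 of 8 of newly formed oligodendrocytes and 5 of 9 of mature oligodendrocytes, against 8.26% of all genes tested. Their median log2 differences were −0.29, −0.37 and −0.32, so that Cntn1 at −0.63 was lower than these medians while Nfasc at −0.30 was close to them. For mature oligodendrocytes the members ran from Mbp at −0.49 to Opalin at −0.06, for newly formed ones from Neu4 at −0.73 to Bmp4 at 0.16, and for precursors from Gpr17 at −0.55 to Ptprz1 at 0.08. The summed FPKM of the precursor list was 431 to 472 in controls and 327 to 388 in mutants, and that of the mature list 56776 to 64547 and 41343 to 52961. Gpr17 alone gave 211.6 to 275.7 of the precursor sum in controls and 150.6 to 179.9 in mutants. The authors list Gpr17 among transcripts enriched in myelin-forming oligodendrocytes, so this sum does not describe precursors alone. Pdgfra, of the same list, had overlapping groups and a log2 difference of −0.14 (adjusted p = 0.537 in limma). Mutant 1, which had the lowest Cntn1, Nfasc, Cntn2, Ank3, Epb41l3, Nrcam and Gldn of the mutants, also had the lowest summed FPKM in all 3 lists.

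Astrocyte markers went the other way, with 7 of 8 higher and not overlapping (12.9% of all genes tested), from Aqp4 at 0.13 to Slc1a2 at 0.67, a median of 0.55 and summed FPKM of 3014 to 3464 against 3893 to 4779. Neuron markers had a median of 0.33 over 11 tested, from Nefh at 0.16 to Slc17a6 at 0.45, and 1 did not overlap. Their mean log2 level relative to controls was 0.18, 0.00 and 0.73 in mutants 1, 2 and 3, beside 3.122, 1.946 and 2.942 FPKM of Cntnap1 and 1.616, 1.482 and 3.549 of Cntnap2, and mutant 3 stood apart in both the neuron list and Cntnap2. Without mutant 3 the median of the neuron list was 0.05. Pou4f1, of the same list, was below the minimum for testing and went the other way. Its FPKM was 0.245 ± 0.0466 (SD) in controls and 0.157 ± 0.0214 (SD) in mutants, on 18 to 50 reads per sample. Medians for microglia, endothelium and Schwann cells were 0.14, 0.32 and 0.04, and 5 of 8 endothelial markers were higher without overlap. With samples centred on their median those of microglia and Schwann cells were 0.05 and −0.04, and with 1 sample left out they ran from 0.09 (without mutant 3) to 0.25 (without mutant 1) and from −0.06 (without control 3) to 0.27 (without control 1). Meningeal fibroblast markers had a median of 0.55, or 0.30 without mutant 1, and mutant 1 had the highest sum with 4851, against 1911 to 2685 in controls. Skeletal muscle markers, which do not belong in the nerve, summed to 90.8 in mutant 2 against 2.59 to 3.47 in controls. Without mutant 2 Cntn1 passed with an adjusted p of 0.0342 in limma, and without mutant 1 with 0.0416 in limma.

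**Figure D5:**
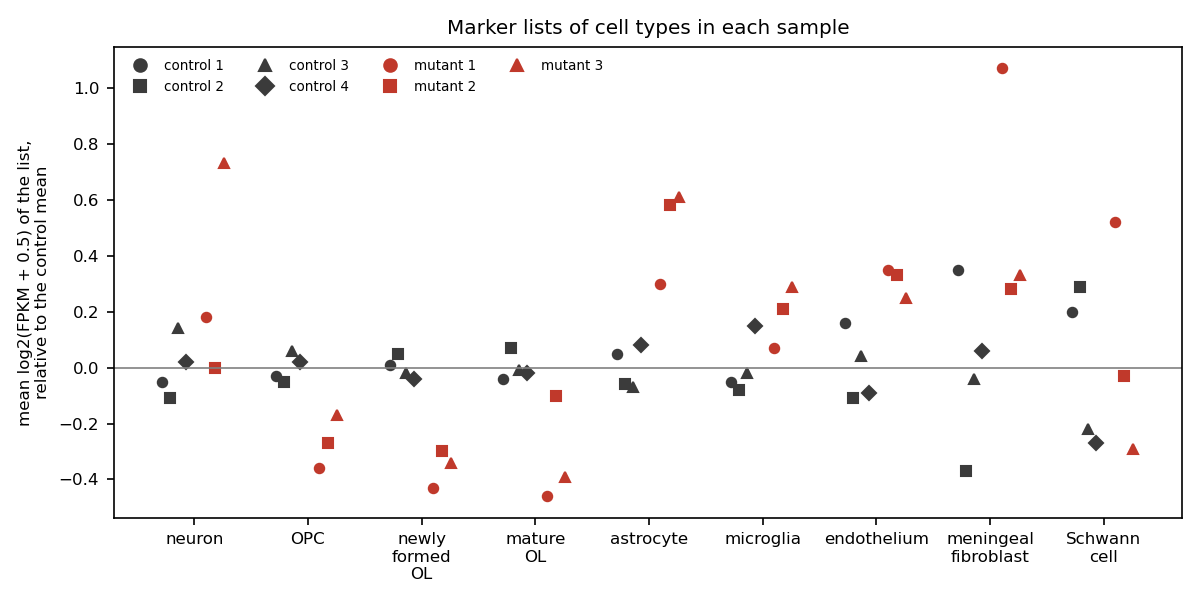
Mean log2(FPKM + 0.5) of the tested markers of 9 cell types (horizontal axis) in each sample, relative to the control mean (vertical axis, log2 units; OL, oligodendrocyte; OPC, its precursor). The mutants are below the controls in the OPC, newly formed OL and mature OL lists, though mutant 2 (−0.10) is close to control 1 (−0.04) in the last. They are above the controls for astrocytes and endothelium. Mutant 3 stands out for neurons (0.73) and mutant 1 for meningeal fibroblasts (1.07).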

How the data were processed

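RNA of both optic nerves of each mouse (4 controls, 3 mutants) was sequenced from stranded mRNA libraries, single end, and samples were grouped by their labels. The authors' processing notes name STAR 2.5.1b, RSEM 1.2.22, edgeR and GRCm38. The authors deposited, for each sample, a normalised count, which is a signal per gene made by dividing the RSEM estimate by a size factor whose method is not given in the sources used here, and an FPKM value from the same counts. Recomputing FPKM from normalised count, length and a constant per sample gave the deposited value to within 0.273%. The GC content is deposited as a fraction. The authors' own log2 ratio, p-value and FDR columns were deposited too and were not used. Whether counting used the strand is not given in the sources used here; no member overlapped another gene of the table.

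Limma 3.58.1 (R 4.3.3), with a trend in the prior variance, was run on log2(FPKM + 0.5) over 13866 genes with at least 0.5 FPKM in at least 3 samples, with genotype as the only term. This scale understates changes of genes near 0.5 FPKM. Partner genes were compared by exact two-sided permutation tests. Reads per gene were estimated from the most frequent step between low normalised counts; 74.9% to 81.0% of values of 0.5 to 10 reads were whole within 0.05, too few for a count test, and these reads give depth only. Precision is otherwise set by the number of mice.

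Replicate numbers are shared between the groups. Deviations from the group means correlated at 0.168, 0.409 and 0.27 for samples of the same number and between −0.353 and 0.205 for different numbers, so the fit with the number as a block is given where it changed a call. The block uses the numbers in the labels, which do not say that samples of the same number belong together. The correlations do not settle this, as mutant 1 correlated at 0.205 with control 4 and at 0.168 with control 1. Fits were tested on simulated data. The named genes were Fasn, the 10 members, the list genes past the threshold and otherwise the 2 of each list with the smallest p, the lowest and highest markers of lists, and the 5 genes most like Cntn1. A result that this rule would name is not reported here. The members and lists were chosen with earlier results of these data known.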

Additional observations from a re-analysis of the deposited data

Results flagged for a closer look

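The log2 difference between Cntnap1 and Cntnap2 in control 4 (0.53) stood apart from the other controls, at 0.25, 0.27 and 0.26 in controls 1 to 3. It was flagged as a sample far from the others of its group; 17 groups of 4 samples were tested in this way, and chance flags about 1 in 20. The mutants had 0.78, 0.30 and −0.23, a wider range than the controls, and the cause was not tested.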

How the results depend on the processing

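With no filter on low values, 0 members passed (limma), 95 genes passed in all and 1 junction or node gene outside the members did among 19291 genes tested. With replicate number as a block, 2 members (Cntn1 and Ank2) and 1159 genes passed. The block left the number of junction and node genes at 4 but exchanged Mag and Cadm4 for Kcnk2 and Lgi1, and changed no other call among the members. Leaving out 1 sample at a time gave 0 to 1 members, 6 to 909 genes and 0 to 8 junction and node genes; the lowest total came without control 3 (6) and without mutant 3 (6), the others being 62, 15 and 119 without control 1, 2 and 4, 191 without mutant 1 and 909 without mutant 2. The cause was not tested. The log2 difference of Cntn2 was −0.21, ran from −0.51 to 0.12 with 1 sample left out and was positive only without mutant 1 (0.12), and that of the pair Cntnap1 and Cntnap2 ran from −0.29 to 0.21 and was positive without control 4 (0.02) and without mutant 3 (0.21). Of 149 alternative values of single members, 141 kept their direction and side of the threshold, 6 of Cntn1 lost the call, 1 of Ank2 gained it and 1 of Cntn2 turned. Gldn gave no value with a minimum of 1 FPKM. The planned count tests were not run, because whole reads could not be recovered for nearly all values. Gldn, Cntnap1 and Cntnap2 had the fewest reads of the members, with 96 to 607 per sample, and how far depth adds to their spread between mice was not tested.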
